A study of Mus musculus with 5 samples.

Results

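The genes described here are 42 cell cycle genes, chosen by name as factors of DNA replication, of the entry into S phase and of mitosis. All 42 were found by symbol among the 18044 genes of the deposited table, and all 42 passed the filter of a mean normalized read count of at least 5. They comprise 13 replication genes (10 of origin licensing and the replication fork and 3 of nucleotide supply), 4 regulators of the G1/S transition and 25 mitosis genes. The study profiled RNA of cells from the pelvis-kidney junction, where the renal pelvis meets the kidney, in wild-type C57BL/6 mouse embryos at E18.5. Junctions of the embryos were pooled, digested with collagenase, labelled with an antibody to the cation channel HCN3 and separated by flow cytometry. There are 2 libraries labelled HCN3-positive, whose cells the submitters call urinary tract pacemaker cells, and 3 labelled HCN3-negative. Both groups share strain, stage, tissue and dissociation, and no transgene or treatment is named. Whether replicates stem from separate pools is not stated, so p-values cover only the spread among these libraries, which may be technical.

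Dividing cells copy their DNA in S phase and separate the copies in mitosis. In G1 the MCM helicase is loaded on replication origins, and cyclin E and the E2F factors then switch on the genes of DNA synthesis. In G2 and mitosis cyclins A and B activate Cdk1, and the anaphase-promoting complex ends mitosis by marking cyclin B and other proteins for destruction. Transcripts of the replication genes are known to peak around the G1/S transition and in S phase, and those of the mitosis genes in G2 and mitosis, many of them through a promoter element called the cell cycle homology region. The mouse kidney and its outflow tract still grow late in gestation, and several of their cell types divide. In such bulk samples, fewer dividing cells and less RNA per cell cannot be told apart.

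Between 24588864 and 39034478 reads fell in genes, the fewest in HCN3-positive 1. Values below are normalized read counts, that is, reads divided by the size factor of the library. Hcn3, which encodes the sorted protein, was at 0 in HCN3-positive 1 (which allows up to 4.23, the value of 3 reads, for counting error only), 44.5 in HCN3-positive 2, and 103, 32.2 and 41.9 in HCN3-negative 1, 2 and 3. Library names are therefore the submitters' labels throughout, and each direction rests on them. The authors' deposited table is named as HCN3-negative against HCN3-positive, yet it divides the libraries otherwise than the labels do. Its fold matches, in each of 18047 rows, a ratio of library means with HCN3-positive 2 and HCN3-negative 1 and 3 above the line and HCN3-positive 1 with HCN3-negative 2 below it. Below, "first set" means HCN3-positive 1 and HCN3-negative 2, and "second set" the other 3 libraries. Exchanging the titles of HCN3-positive 2 and HCN3-negative 2 would make the labels match this division, and whether titles were exchanged is not settled by the sources used here. If they were, each fold, count and overlap given by label would compare a mixture of both kinds of cells. The summed level of 9 detected leukocyte markers was 452819.6 and 484495 in the first set and 1432, 1105 and 2312 in the second, while that of 6 smooth muscle markers was 5421 and 3246 against 90894, 125332 and 19556. Each set holds libraries of both labels, so these marker levels split the labels.

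Transcripts of all 42 cell cycle genes were detected in every library. Together the 42 genes made up from 0.313% of the reads in genes in HCN3-positive 1 to 0.598% in HCN3-positive 2. Per kilobase of exon their mean levels had a median at percentile 83.1 of the genes tested, and the lowest, the repressor E2f8, lay at percentile 37.4. The highest library exceeded the lowest by 1.44-fold for the centriole kinase Plk4 to 3.77-fold for Ube2c, an enzyme of the anaphase-promoting complex. The median of this ratio was 1.98, as it was for the 9694 genes with at least the mean level of the lowest member, Ccne2. All 42 members stayed within a ratio of 4, as did 78.5% of those 9694 genes and 59.3% of all genes tested. The median ratio of the members was thus that of genes at or above the level of Ccne2, which were not matched to the members in level.

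**Figure D1:**
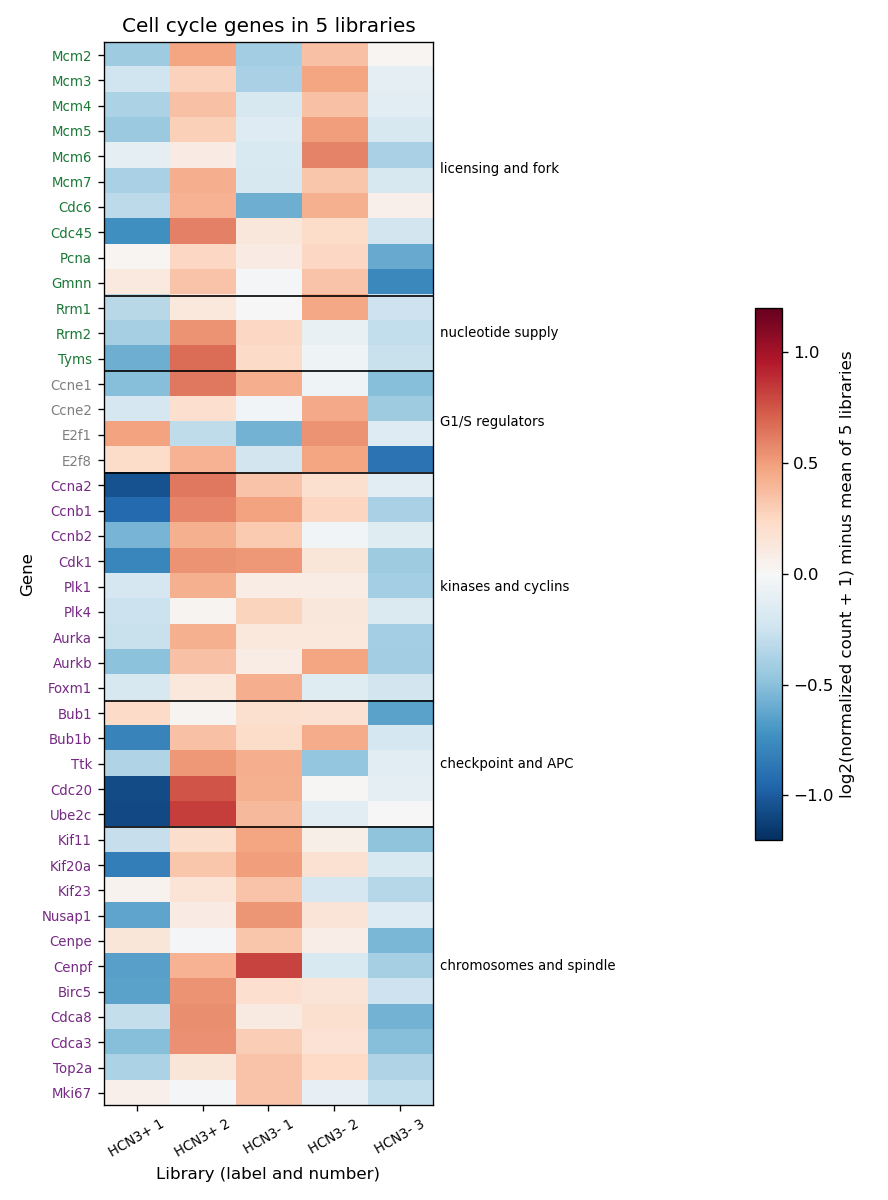
Level of the 42 genes (rows, grouped by role, with names of replication genes in green, G1/S regulators in grey and mitosis genes in purple) in the 5 libraries (columns), as log2(normalized count + 1) minus the mean over libraries. Red cells lie above that mean and blue cells below; HCN3-positive 1 was the lowest library for 22 of the 42 genes, and HCN3-positive 2 the highest for 21.

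Whether cells labelled HCN3-positive carried more or less of the cell cycle transcripts than those labelled HCN3-negative was tested first, and no member passed. Of the 42 members, 0 were called higher and 0 lower by limma at an adjusted p of 0.05, against 0% of all 16579 genes tested, and 0 had an unadjusted p under 0.05, against 0.947% of all genes. On whole reads recovered from the values, edgeR, DESeq2 and limma-voom also called 0 members, against 0%, 0.0603% and 0% of all genes. These tools gave 0 members an unadjusted p under 0.05, against 0.995%, 2.8% and 0.651% of all genes. The labelled groups overlapped for all 42 members, whereas 10.8% of all genes had groups that did not overlap. Log2 fold changes, labelled positive over labelled negative, lay above 0 for 21 members and below 0 for 21, with a median of -0.01 beside -0.03 for all genes tested. Medians were 0.03 for the replication genes, 0.13 for the G1/S regulators and -0.11 for the mitosis genes.

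These directions rested on single libraries. Without HCN3-positive 1, 39 members lay above 0, whereas without HCN3-positive 2, and likewise without HCN3-negative 3, 34 lay below 0. Among the 42 members HCN3-positive 2 was the highest library for 21 (16.2% of all genes), HCN3-negative 1 for 10 (19.6%) and HCN3-negative 2 for 10 (19.5%). HCN3-positive 1 was the lowest for 22 (32.1% of all genes) and HCN3-negative 3 for 16 (14.6%). With scaling to total gene reads HCN3-negative 3 was the lowest for 10. HCN3-positive 2 was then the highest for 28 and HCN3-negative 2 for 3. Under TMM scaling they were the highest for 18 and 14. Counted separately, HCN3-positive 1 was most often the lowest library and HCN3-positive 2 most often the highest. Shares over all genes are given for the values as deposited only.

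**Figure D2:**
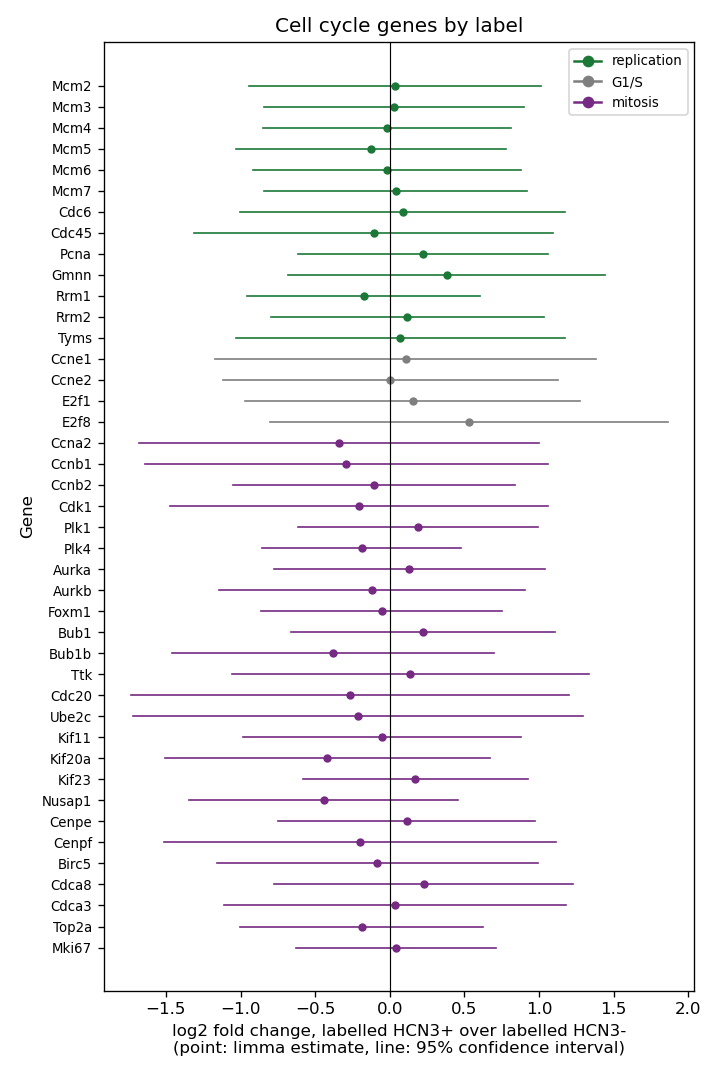
Log2 fold change (horizontal axis) of each of the 42 genes (vertical axis) between the libraries labelled HCN3-positive (n = 2) and HCN3-negative (n = 3). Points are limma estimates and lines their 95% confidence intervals, which hold 0 for all 42; the estimates run from -0.44 for Nusap1 to 0.53 for E2f8.

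The 95% intervals show what these 5 libraries could resolve. For 12 of the 42 members (5 replication and 7 mitosis genes) a 2-fold difference lay outside the interval in both directions, and for the other 30 it lay inside on at least 1 side. Mki67 (GRCm38 chromosome 7, 135689784 to 135716361, minus strand), the proliferation antigen Ki-67 that coats mitotic chromosomes, stood at 7589 and 7181 in HCN3-positive 1 and 2, against 9186, 6773 and 5925 in HCN3-negative 1, 2 and 3. Both values of the labelled positive group lay inside the range of the negative one. Its log2 fold change was 0.04 (SE 0.26, interval -0.63 to 0.71). Top2a (chromosome 11, 98992943 to 99024189, minus strand), the topoisomerase that untangles sister chromatids, stood at 6972 and 10038 against 11495, 10677 and 7069.6, with a log2 fold change of -0.19 (SE 0.32). The adjusted limma p was 1.00 for both, as for all 42 members.

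Genes of licensing and the fork shared their top libraries. Mcm6 (chromosome 1, 128331590 to 128359664, minus strand), a subunit of the MCM helicase and the member of this group with the highest counts, stood at 10423 and 12063 in HCN3-positive 1 and 2, against 9965, 17071 and 8629.6 in HCN3-negative 1, 2 and 3. Mcm2, another subunit, stood at 3384 and 6314 against 3415, 5806 and 4633. In both genes HCN3-positive 2 and HCN3-negative 2, 1 library of each label, were the highest. That held for 6 of 6 MCM subunits and for 10 of 10 licensing and fork genes, against 6.33% of all genes, and with scaling to total gene reads for 8 of the 10. The comparison of top libraries was chosen after the values were seen. Log2 fold changes by label were -0.02 (SE 0.35) for Mcm6 and 0.03 (SE 0.39) for Mcm2.

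Pcna, the sliding clamp of DNA polymerase, stood at 4072 and 4756 against 4302, 4754 and 2632, and the licensing inhibitor geminin (Gmnn) at 1115 and 1305 against 1010.4, 1303 and 603. Both were lowest in HCN3-negative 3, the library with the highest summed erythroid, endothelial and podocyte markers, whose part in this was not tested. Their log2 fold changes were 0.22 (SE 0.33) and 0.38 (SE 0.42), the latter with an interval of -0.68 to 1.44. Cdc6, which loads the helicase, stood at 1060.0 and 1757 against 876, 1766 and 1376. Cdc45, part of the active helicase, stood at 674 and 1705 against 1229, 1304 and 962. Mcm3, Mcm4, Mcm5 and Mcm7 had log2 fold changes of -0.13 (Mcm5) to 0.04 (Mcm7).

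Nucleotide supply genes were lowest in HCN3-positive 1 in 3 of 3 cases. Rrm1, the large subunit of ribonucleotide reductase, stood at 6329 and 8739 in HCN3-positive 1 and 2, against 7964, 11012 and 6743 in HCN3-negative 1, 2 and 3, with a log2 fold change of -0.17 (SE 0.31). Its partner Rrm2, the small subunit, stood at 3642 and 6982 against 5685, 4503 and 3917. Thymidylate synthase (Tyms) stood at 1714 and 4115 against 3028, 2492 and 2144 (log2 fold change 0.07, SE 0.44). Rrm1 was highest in HCN3-negative 2, like the MCM genes Mcm3, Mcm5 and Mcm6, whereas Rrm2 and Tyms were highest in HCN3-positive 2. In all, 5 replication genes were highest in HCN3-negative 2, and 2 with scaling to total gene reads.

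The 4 regulators of the G1/S transition had log2 fold changes of 0.00 to 0.53, all with overlapping groups. E2f1 (chromosome 2, 154559407 to 154569892, minus strand), an activator of S-phase genes, stood at 2973 and 1722 in HCN3-positive 1 and 2, against 1429, 3089 and 1912 in HCN3-negative 1, 2 and 3. It was higher in the 2 libraries of the first set than in the 3 of the second, so its values split both labels (log2 fold change by label 0.15, SE 0.44). E2f8, a repressor of E2F targets, stood at 549.7 and 632 against 405, 659 and 255 (log2 fold change 0.53, SE 0.53, interval -0.80 to 1.86). Of the cyclin E genes, Ccne1 stood at 610.4 and 1351 against 1178, 838 and 607 and Ccne2 at 426 and 563 against 478, 670.3 and 364. Ccne1 was highest in HCN3-positive 2 and the other 3 regulators in HCN3-negative 2. With scaling to total gene reads, 3 were highest in HCN3-positive 2 and 1 in HCN3-negative 2.

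Of the mitotic kinases and cyclins, Cdk1 and its cyclins were lowest in HCN3-positive 1 and highest in HCN3-positive 2. Ccnb1 (chromosome 13, 100778650 to 100786570, minus strand), cyclin B1, stood at 2391 and 6836 in HCN3-positive 1 and 2, against 6362, 5467 and 3485 in HCN3-negative 1, 2 and 3. Cdk1, the kinase it activates, stood at 2028 and 5057 against 5014, 3864 and 2604, and cyclin A2 (Ccna2) at 2110.2 and 6756 against 5530.2, 4965 and 3998. The labelled positive libraries thus bracketed the negative ones for these 3 genes, and did so for cyclin B2 (Ccnb2) too, at 1821 and 3619 against 3336, 2619 and 2425. Log2 fold changes were -0.29 (SE 0.53) for Ccnb1, -0.21 (SE 0.50) for Cdk1 and -0.34 (SE 0.53) for Ccna2. Plk4, which starts centriole duplication, varied least of all members, at 1834 and 2238 against 2641, 2405 and 1939 (log2 fold change -0.19, SE 0.26). Ccnb2, Plk1, Aurka, Aurkb and the mitotic transcription factor Foxm1 had log2 fold changes between -0.12 for Aurkb and 0.19 for Plk1.

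Among the members, the widest differences between libraries were seen for Ube2c and Cdc20, which act with the anaphase-promoting complex. Ube2c, its ubiquitin-conjugating enzyme, stood at 1456 and 5489 in HCN3-positive 1 and 2, against 4037, 2821 and 3089 in HCN3-negative 1, 2 and 3. Its activator Cdc20 stood at 1104 and 3929 against 3123, 2356 and 2143. In both, the libraries labelled positive held the lowest and the highest value. The log2 fold change was -0.21 (SE 0.60, interval -1.72 to 1.30) for Ube2c and -0.27 (SE 0.58) for Cdc20. The spindle checkpoint gene Bub1b stood at 1969 and 4392 against 4021, 4689 and 2970.2 (log2 fold change -0.38, SE 0.43), whereas its relative Bub1 stood at 2633 and 2297 against 2569.5, 2542 and 1438. Bub1 was the 1 member highest in HCN3-positive 1, as 25.4% of all genes were. Under TMM scaling and under scaling to total gene reads, 0 members were highest in that library. Ttk, another checkpoint kinase, stood at 523 and 966 against 907, 486 and 612.

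Genes of chromosomes and the spindle were led by HCN3-negative 1, which was highest for 8 of 11. Cenpf, a kinetochore protein of G2 and mitosis, stood at 1517 and 3193 in HCN3-positive 1 and 2, against 4204, 2108 and 1818 in HCN3-negative 1, 2 and 3 (log2 fold change -0.20, SE 0.52). Nusap1, which binds spindle microtubules, stood at 1431 and 2386 against 3207, 2472 and 1998, with the smallest unadjusted limma p of the members (0.265) and a log2 fold change of -0.44 (SE 0.36). Its groups still overlapped. The spindle motors Kif11, Kif20a and Kif23, the kinetochore motor Cenpe, the passenger complex genes Birc5 and Cdca8, and Cdca3 had log2 fold changes from -0.42 for Kif20a to 0.23 for Cdca8. HCN3-negative 1 also had the highest summed smooth muscle, stroma and urothelium markers of the 5 libraries, whose part in this was not tested.

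Replication and mitosis genes were then set against each other within each library, which cancels the scaling of the library. Relative to its mean over libraries, the mean log2 level of the 13 replication genes was -0.33 and 0.37 in HCN3-positive 1 and 2, and -0.11, 0.32 and -0.26 in HCN3-negative 1, 2 and 3. For the 25 mitosis genes these values were -0.47, 0.36, 0.34, 0.08 and -0.32 in the same order. Both groups were low in HCN3-positive 1 and HCN3-negative 3 and high in HCN3-positive 2, and they parted most in HCN3-negative 1. The difference, replication minus mitosis, was 0.15 and 0.01 in the labelled positive libraries and -0.46, 0.24 and 0.06 in the labelled negative ones. The lowest and the highest value both belonged to the negative label, so the labelled groups overlapped. Summed counts of the replication genes, divided by those of the mitosis genes, gave 0.910 and 0.800 in the labelled positive libraries and 0.593, 0.993 and 0.861 in the negative ones. This ratio was thus lowest in HCN3-negative 1 and highest in HCN3-negative 2. Because the sums cover 13 and 25 genes, only the order of libraries can be read from it, not which group was more abundant. For 15 of 25 mitosis genes the top libraries were HCN3-positive 2 and HCN3-negative 1 (16.1% of all genes), and this held for 2 of 13 replication genes. Under TMM scaling it held for 13 and 2, and under scaling to total gene reads for 24 and 4. The share over all genes is not given under these scalings. Scaling to total gene reads itself raises HCN3-positive 2 and HCN3-negative 1 the most, so the count of 24 cannot be set against 16.1%.

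**Figure D3:**
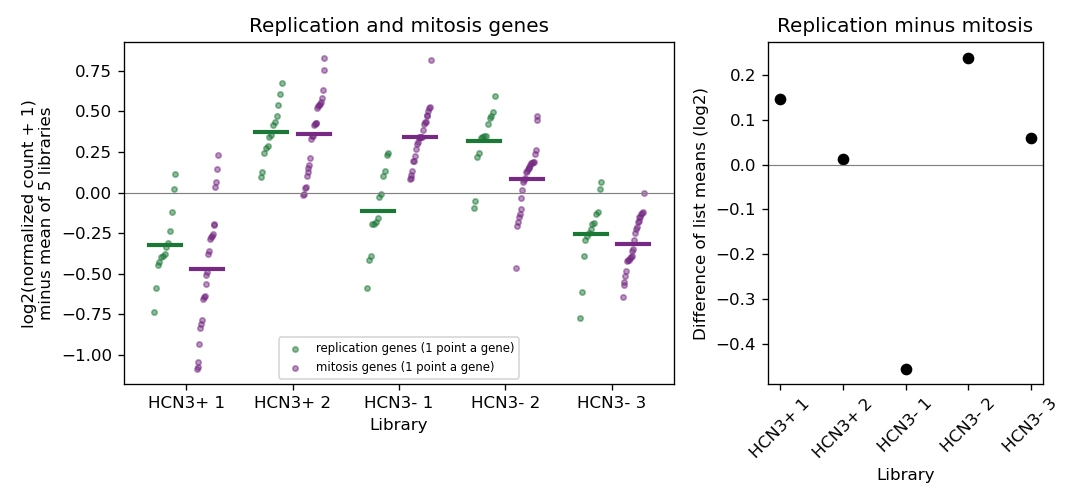
Left, log2(normalized count + 1) minus the mean over libraries (vertical axis) for each replication gene (green) and mitosis gene (purple) in each library (horizontal axis), with bars at the list means. Right, the difference of the list means, which ran from -0.46 in HCN3-negative 1 to 0.24 in HCN3-negative 2.

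Promoters of the replication and mitosis genes also differed in sequence, a feature of the genome build and not of these libraries. The link of mitosis genes to the homology region was known beforehand, as given above. In the RefSeq promoter table (GRCm38.p6, 250 bases before to 50 after each start) 35 of the 42 members had an entry, namely 11 replication genes with 12 promoters, 3 G1/S regulators and 21 mitosis genes. Both strands were searched for the cell cycle homology region (TTTGAA), the CCAAT box (CCAAT) and the E2F core. As the E2F core, matches to TTCCCGC, to TTCGCGC, to TTGCCGC and to TTGGCGC were counted, which can overlap one another and the CCAAT box. The homology region was found in 15 of 21 mitosis promoters (71.4%) and in 2 of 12 replication promoters (16.7%), against 17.9% of all 32851 promoters and 12.5% of those of the genes tested. The E2F core was found in 8 of 12 replication promoters (66.7%) and in 4 of 21 mitosis promoters (19%), against 9.57% of all and 15% of those of the genes tested. CCAAT boxes were common to both, in 83.3% and 85.7%, against 37.4% of all. A match describes the letters and does not show that a factor binds.

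The sequences here are the 110 bases before the RefSeq start of 2 replication genes and 4 mitosis genes, picked as examples with matches in this window after the matches were seen. They are written 5′ to 3′ on the strand of the gene, with matches to any of the 3 motifs in capitals. In GRCm38 the windows are chr1:128359706-128359815 (minus strand) for Mcm6, chr7:102441585-102441694 (plus strand) for Rrm1, chr4:118437344-118437453 (minus strand) for Cdc20, chr10:69352913-69353022 (minus strand) for Cdk1, chr11:99024190-99024299 (minus strand) for Top2a and chr19:37376272-37376381 (plus strand) for Kif11.
Mcm6: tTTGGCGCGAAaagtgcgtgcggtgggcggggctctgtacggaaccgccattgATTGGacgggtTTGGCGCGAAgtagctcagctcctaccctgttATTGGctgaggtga
Rrm1: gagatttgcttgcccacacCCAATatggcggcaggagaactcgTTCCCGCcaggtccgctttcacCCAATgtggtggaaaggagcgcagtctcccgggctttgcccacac
Cdc20: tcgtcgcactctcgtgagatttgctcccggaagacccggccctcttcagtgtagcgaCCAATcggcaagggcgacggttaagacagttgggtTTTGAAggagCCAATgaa
Cdk1: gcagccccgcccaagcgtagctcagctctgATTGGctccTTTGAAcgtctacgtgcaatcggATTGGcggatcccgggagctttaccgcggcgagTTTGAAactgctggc
Top2a: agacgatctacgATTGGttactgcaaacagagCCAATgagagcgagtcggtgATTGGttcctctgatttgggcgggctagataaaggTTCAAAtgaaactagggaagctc
Kif11: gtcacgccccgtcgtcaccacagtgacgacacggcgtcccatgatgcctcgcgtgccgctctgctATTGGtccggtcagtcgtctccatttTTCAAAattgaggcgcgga
Mcm6 shows 2 stretches in which E2F matches of both strands overlap, with a CCAAT box, written ATTGG on the other strand, on either side of the second. Rrm1 has 1 E2F match between 2 CCAAT boxes. In Cdc20, Cdk1, Top2a and Kif11 the homology region, written TTTGAA or on the other strand TTCAAA, lies downstream of at least 1 CCAAT box. Matches outside these windows are not shown: Cdk1 has 2 E2F matches and 1 CCAAT box further upstream and so counts among the 4 mitosis promoters with an E2F core, Top2a has 1 homology region and 3 CCAAT boxes further upstream, and Mcm6 has 1 E2F match after the start. Mcm2, Mki67, Ube2c and E2f8 also hold a homology region in the same window. The other mitosis promoters counted with it hold it outside this window. In Aurka, Bub1b, Cdca3, Cdca8, Cenpf, Kif23, Plk1 and Ttk it lies only after the start, and in Ccnb2 further upstream and after the start. The examples thus do not stand for all promoters counted.

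In the division that the authors' deposited table compares, no cell cycle member was called either. At an adjusted p of 0.05 the authors' deposited table called 0 of the 42, against 14.2% of all genes. The sets did not overlap for 3 members, against 49.6% of all genes. Ube2c and Ttk lay higher in every library of the second set (26.1% of all genes), and E2f1 in every library of the first (23.5%). With scaling to total gene reads 6 members lay higher in the second set without overlap. Under TMM scaling 2 lay higher in the first. For these scalings the share over all genes is not given, so the shift cannot be judged against it. In the authors' deposited table Ube2c had a log2 fold, second over first, of 0.98 with an adjusted p of 0.212, and E2f1 had -0.84 with 0.156, the smallest adjusted p of the 42.

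The median log2 fold of the authors' deposited table was -0.08 for the replication genes, -0.36 for the G1/S regulators and 0.31 for the mitosis genes, beside 0.05 for all genes tested. Of the mitosis genes 22 of 25 lay above 0, and of the replication genes 6 of 13, beside 8731 of the 16579 genes tested. Single libraries moved these medians. Computed from the library means without HCN3-positive 1, the mitosis median was 0.04 and the replication median -0.32; without HCN3-negative 2 they were 0.66 and 0.41. All 9 detected leukocyte markers were called in the authors' deposited table, with log2 folds of -12.35 to -6.19, and their part in the values of the cell cycle genes was not tested.

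**Figure D4:**
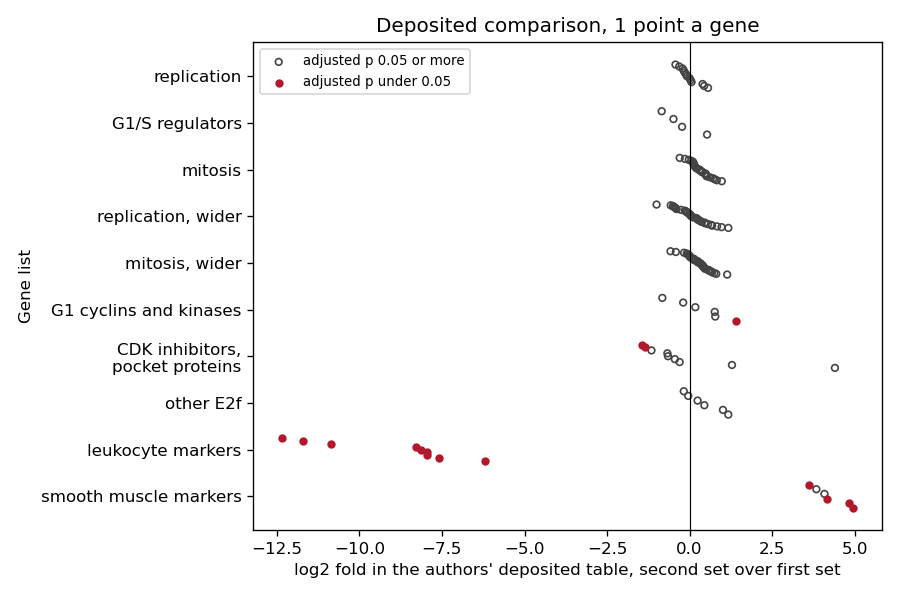
Log2 fold of the second over the first set in the authors' deposited table (horizontal axis) for each gene of 10 lists (vertical axis). Filled red points had an adjusted p under 0.05 in that table; 0 of the 42 cell cycle members did, while all 9 leukocyte markers did, with log2 folds of -12.35 to -6.19.

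Wider lists of cell cycle genes, none of them members, were counted by label in the same way. Of 32 further replication genes 0 were called by limma (17 above 0, median 0.02), and of 32 further mitosis genes 0 were called (11 above 0, median -0.13). In the first list Prim1, the catalytic subunit of primase, had the smallest unadjusted limma p (0.0864), at 1508 and 1795 against 1145, 1159 and 1099.5. It was the 1 gene of 32 that lay higher in both labelled positive libraries without overlap (5.34% of all genes). Atad2 and the helicase gene Brip1 had log2 fold changes of -0.56 (SE 0.34) and -0.63 (SE 0.48). In the second list G2e3 was the 1 gene of 32 that lay lower without overlap (5.44% of all genes), at 905 and 1056 against 1327, 1135 and 1239. Gas2l3 had a log2 fold change of 0.37 (SE 0.35) and Gtse1 of -0.93 (SE 0.89).

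The authors' deposited table called 0 genes of either list. On the replication side the uracil glycosylase gene Ung had a log2 fold of 1.17 (adjusted p 0.764) in the authors' deposited table, and the replication factor Mcm10 stood at 1436 and 1806 in the first set and 982, 821 and 626 in the second (adjusted p 0.105). On the mitosis side Psrc1 had 1.14 (adjusted p 0.294) and the kinetochore gene Spc25 0.81 (adjusted p 0.222) in the same table.

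Genes that act on the decision to enter the cycle included 3 that the authors' deposited table called. They were 1 of 6 G1 cyclins and kinases, higher in the second set (6.09% of all genes), and 2 of 9 detected CDK inhibitors and pocket proteins, higher in the first (8.1%). Cyclin D2 (Ccnd2), which drives G1 with Cdk4 and Cdk6, stood at 2666 and 2590.3 in the first set and 8003, 7919.8 and 4947 in the second. Its log2 fold in the authors' deposited table was 1.40, with an adjusted p of 0.00426. The retinoblastoma gene Rb1, whose protein holds E2F factors in check, stood at 4077 and 2863 in the first set and 909, 1711 and 1206 in the second, with -1.44 and an adjusted p of 0.00345 in the authors' deposited table. The inhibitor Cdkn1a, or p21, stood at 1590.0 and 2124 in the first set and 608, 831 and 764 in the second, with -1.34 and 0.0104 in the authors' deposited table. In all 3 genes the sets did not overlap, as in 49.6% of all genes (23.5% with the first set above and 26.1% with the second). Cdkn1c, or p57, an inhibitor known from podocytes, stood at 3053 and 2763 in the first set and 24831, 27093 and 132527 in the second, with a deposited adjusted p of 0.291 in the authors' deposited table. Its highest value was in HCN3-negative 3, as was that of the summed level of 5 podocyte markers, 279764 against 6192 to 42766 in the other libraries.

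By label limma called 0 genes of these lists. Ccnd1 and Ccnd3 had log2 fold changes of 0.27 (SE 0.56) and 0.16 (SE 0.29), and Cdk6 had -0.24 (SE 0.58). The inhibitor gene Cdkn2d and the pocket protein gene Rbl2 had 0.38 (SE 0.40) and -0.24 (SE 0.26). Among 6 other E2f genes E2f5 stood at 710.4 and 964 against 1315, 999 and 1218 and E2f4 at 1942 and 1814 against 1439, 1690.3 and 1570.2. In neither did the labelled groups overlap, E2f5 being lower (5.44% of all genes) and E2f4 higher (5.34%) in the labelled positive libraries, with unadjusted limma p of 0.17 and 0.317. E2f3 stood at 445 and 590.4 in the first set and 1182, 1012 and 1309 in the second, and in the authors' deposited table it had a log2 fold of 1.17 with an adjusted p of 0.0897. E2f7 stood at 454 and 436 in the first set and 927, 883 and 880.0 in the second, with 1.01 and 0.184 in the authors' deposited table. Neither passed. Both lay higher in every library of the second set (26.1% of all genes), and E2f1 in every library of the first (23.5%).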

How the data were processed

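Libraries were prepared with Clontech cDNA synthesis and Nextera XT, per the labels' protocols. No step that marks strand is named, so reads of a gene and of an antisense partner may not be told apart. Per the submitters' processing notes, the tools were TopHat2 2.0.11, HTSeq 0.6.1p2, DESeq 1.18.0, cutadapt 1.8, Trim Galore 0.40, FastQC 0.11.2 and bcl2fastq 2.17, with the build mm10. For the annotation behind the counts, nothing is given in the sources used here. Deposited by the authors was 1 table whose signal columns are read counts divided by a size factor per library. Per the file headers it also gives a ratio (fold), its log2, and p-values. The 3 counter summary rows were left out; reads not aligned uniquely were 13.5% to 18.7% of all reads. Whole reads were recovered for 100% of the values (tolerance 0.01).

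Labelled positive and labelled negative libraries were compared with limma 3.58.1 (trend; R 4.3.3) on log2(normalized count + 1), which understates changes of low genes. It covered 16579 genes of mean 5 or more, with Benjamini-Hochberg adjustment at 0.05 over all of them. Recovered reads were also tested with limma-voom, DESeq2 1.42.0 and edgeR 4.0.16; other pseudocounts, filters and scalings, a replicate block and leaving out each library were also tried. Fits were tested for the recovery of set fold changes on simulated counts. These had the same dispersion for every gene and no split like that between the first and second set. They therefore do not show how the tests perform in these data. Positions and exon lengths come from GENCODE M21 (GRCm38, the build also called mm10).

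Members and lists were chosen with earlier results of these data known. Genes given in full were, per role, those with the highest mean, the smallest unadjusted p and the widest deposited fold, plus Mki67, Top2a, Pcna, Mcm2, Cdk1 and Ccnb1; of each wider list, up to 3 by p and 2 by deposited fold. Other genes given with values for each library were chosen after their values were seen. Summed markers of nephron progenitors, proximal tubule, collecting duct, and neurons and glia were also computed. In the order HCN3-positive 1 and 2 and HCN3-negative 1 to 3 they were 97.3, 2303, 1181, 805 and 2858 for nephron progenitors; 3913, 5788, 8845, 31162 and 16227 for proximal tubule; 50869.8, 19209, 11759, 16021 and 7191 for collecting duct; and 182, 487, 493, 224 and 460.5 for neurons and glia.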

Additional observations from a re-analysis of the deposited data

How the results depend on the processing

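Under every alternative run the count of members called by label stayed at 0; DESeq2 alone called genes, 1 higher and 9 lower, none of them members. Leaving out each library moved the members above 0 over 8 to 39 and those below over 3 to 34. Medians by label ranged over -0.37 to 0.45 for replication and -0.49 to 0.34 for mitosis genes, and in the wider lists over -0.41 to 0.26 (replication), -0.49 to 0.30 (mitosis), -0.48 to 0.39 (G1 cyclins and kinases), -0.37 to 0.52 (CDK inhibitors and pocket proteins) and -0.38 to 0.22 (other E2f genes); the deposited replication median ranged over -0.32 to 0.41. Single fold changes that turned sign ranged over -0.41 to 0.48 for Mcm2, -0.22 to 0.27 for Mcm6, -0.039 to 0.39 for Pcna, -0.41 to 0.058 for Rrm1, -0.56 to 0.70 for Tyms, -0.24 to 0.55 for E2f1, -1.18 to 0.50 for Ccna2, -1.05 to 0.47 for Ccnb1, -0.86 to 0.45 for Cdk1, -0.96 to 0.20 for Bub1b, -1.17 to 0.74 for Ube2c, -0.74 to 0.34 for Cenpf, -0.45 to 0.074 for Top2a, -0.096 to 0.22 for Mki67. The cause was not tested beyond the library left out. Sign also turned for Mcm6 in limma-voom (0.00446) and for Ube2c in DESeq2 (0.066) and edgeR (0.095). Numbers 1 and 2 recur under both labels, but no label says that they pair samples, and the deviations of same-numbered libraries correlated at -0.53 and -0.69; with the replicate block, in which HCN3-negative 3 has no partner and so no weight, 8 members lay above 0 and 34 below, and the fold changes of Tyms (-0.049), Mki67 (-0.096) and Pcna (-0.039) turned. Of alternatives chosen after seeing the data, scaling to total gene reads gave 6 members higher in the second set (2 as deposited) and 10 lowest in HCN3-negative 3 (16 as deposited), and TMM scaling gave 2 higher in the first set (1 as deposited). Shares over all genes are given for the values as deposited only. With 2 libraries against 3, the 95% interval held a 2-fold difference for 30 of the 42 members.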

Other observations

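Per kilobase of exon, the transcripts of the MCM subunits were not level with one another, although the proteins form a ring with 1 copy of each. Mean normalized counts per kilobase were 2493 for Mcm6, 1716 for Mcm3, 1608 for Mcm4, 1325 for Mcm5, 1081 for Mcm7 and 677 for Mcm2. Mcm6 was the highest and Mcm2 the lowest in each of the 5 libraries. Mcm2 also had the longest exon length of the 6, 6.96 kb over all its transcripts in GENCODE M21, and which transcripts were present was not measured.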
